A study of Mus musculus with 19 samples.

Results

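Genes that answer to the transcription factor ATF4, together with the cytosolic aminoacyl-tRNA synthetases, were followed in the suprarenal abdominal aorta (SRA) of mice. The set held 42 of the 20408 genes measured, taken by name. It was chosen with earlier results of these data known, so counts beside the shares over all genes are descriptions. It was divided into 8 stress regulators, 11 enzymes of amino acid and one-carbon synthesis, 6 amino acid transporters, 3 other ATF4 targets and 14 cytosolic synthetases. All 42 genes had 1 row each and entered the tests, and 41 were above 0 in every mouse.

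ATF4 is the transcription factor at the end of the integrated stress response. The kinases GCN2, which senses uncharged tRNA, and PERK, which senses unfolded protein in the endoplasmic reticulum, phosphorylate the initiation factor eIF2α, and this lowers general translation while the Atf4 mRNA is translated more. ATF4 also rises with mTORC1 activity without that phosphorylation. Paired with a C/EBP partner it binds C/EBP-ATF response elements and raises genes for amino acid uptake, for serine, asparagine, proline and one-carbon synthesis, and for tRNA charging. Because much of this control is on translation, the level of Atf4 mRNA is not a measure of ATF4 protein.

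Bulk RNA-Seq was done on the SRA of 19 male mice, which were fed chow and infused by osmotic pump for 24 h. The labels give their age as 8 weeks. In the study's methods tamoxifen was started at that age and a rest followed before the infusion, so the mice were older when sampled. The IKKβ+/+ mice (SMA-CreERT2 ApoE-/-, labelled wild-type in the deposit) received Ang II (5 mice) or saline (5 mice). The IKKβ-/- mice (SMA-CreERT2 IkkbFlox/Flox ApoE-/-) did so too, with 5 mice on Ang II and 4 on saline. All of them lacked ApoE, carried the Cre and had received tamoxifen. Cre was driven by the smooth muscle actin promoter, so that Ikbkb was deleted in smooth muscle cells and not in the other cells of the wall. The study's methods give the dose of Ang II for these libraries as 1000 ng/min/kg (500 to 1000 in the labels). The controls were littermates, but which mice shared a litter or a day is not given in the sources used here, and each group had its own block of mouse numbers, so any batch cannot be told apart from them. In bulk tissue, fewer cells of a type and less RNA per cell cannot be told apart.

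Each mouse had from 11382573 to 19906694 reads on genes. Values are normalized counts, the reads of a mouse divided by its size factor, and fold changes are on the log2(normalized count + 1) scale. Ikbkb was 23.8% lower in IKKβ-/- than in IKKβ+/+ mice (two-sided exact permutation test, p = 0.000173), with 8 of 9 IKKβ-/- mice below all IKKβ+/+ mice. The 8 smooth muscle markers of the wall summed to between 309864 and 647800 normalized counts in every mouse, with none at 0. Mitochondrially encoded genes took 5.99 to 14.1% of the counts in IKKβ+/+ mice and 7.88 to 38.7% in IKKβ-/- mice, with the highest shares in mice X2406 (saline) and X2385 (Ang II). The threshold was passed where the adjusted p was below 0.1 and the fold change over 1.2, from 1 limma fit over the 4 groups with Benjamini-Hochberg adjustment over the 14845 genes tested. All adjusted p below come from that fit, and ± is the SD over mice.

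In IKKβ+/+ mice the response to Ang II was broad. Of the 42 genes, 17 rose and 1 fell, where 4.33% of all genes tested rose and 4.33% fell. The median log2 fold change was 0.36, against 0.01 over all genes tested, and 39 of 42 values were above 0, against 50.7% of all genes. Groups did not overlap in 9 genes that were higher and 1 that was lower with Ang II, where the shares over all genes were 3.95% and 4.47%. By role, 9 of 14 synthetases, 5 of 11 synthesis enzymes and 2 of 8 stress regulators rose, with medians of 0.42, 0.44 and 0.26. At a fold change above 1.5 none of these 9 synthetases passed. None of the 6 transporters passed the threshold in the main limma fit, with a median of 0.27, and 2 of them had an unadjusted p under 0.05. DESeq2 on the recovered reads called 1 transporter, Slc7a5, and the edgeR quasi-likelihood test called none. Smooth muscle markers moved in the same comparison, with 3 of 8 higher (Des, Cnn1 and Tagln) and a sum of 334569 to 446231 normalized counts with saline and 464324 to 647800 with Ang II, and so did the mitochondrial share, at 5.99 to 9.07% and 10.1 to 14.1%. All 6 fibroblast markers had values below 0 (median -0.56) and Lum passed (-1.27), with sums of 108815 to 154348 normalized counts with saline and 77541 to 135535 with Ang II. The skeletal muscle marker Ckm passed too (2.93), and DESeq2 called the endothelial Tie1 and Vwf lower. The part of these markers in the rise of the 17 genes was not tested. The 3 other targets went different ways, with Chac1 higher, Vldlr lower and Stc2 at a log2 fold change of 0.25.

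**Figure D1:**
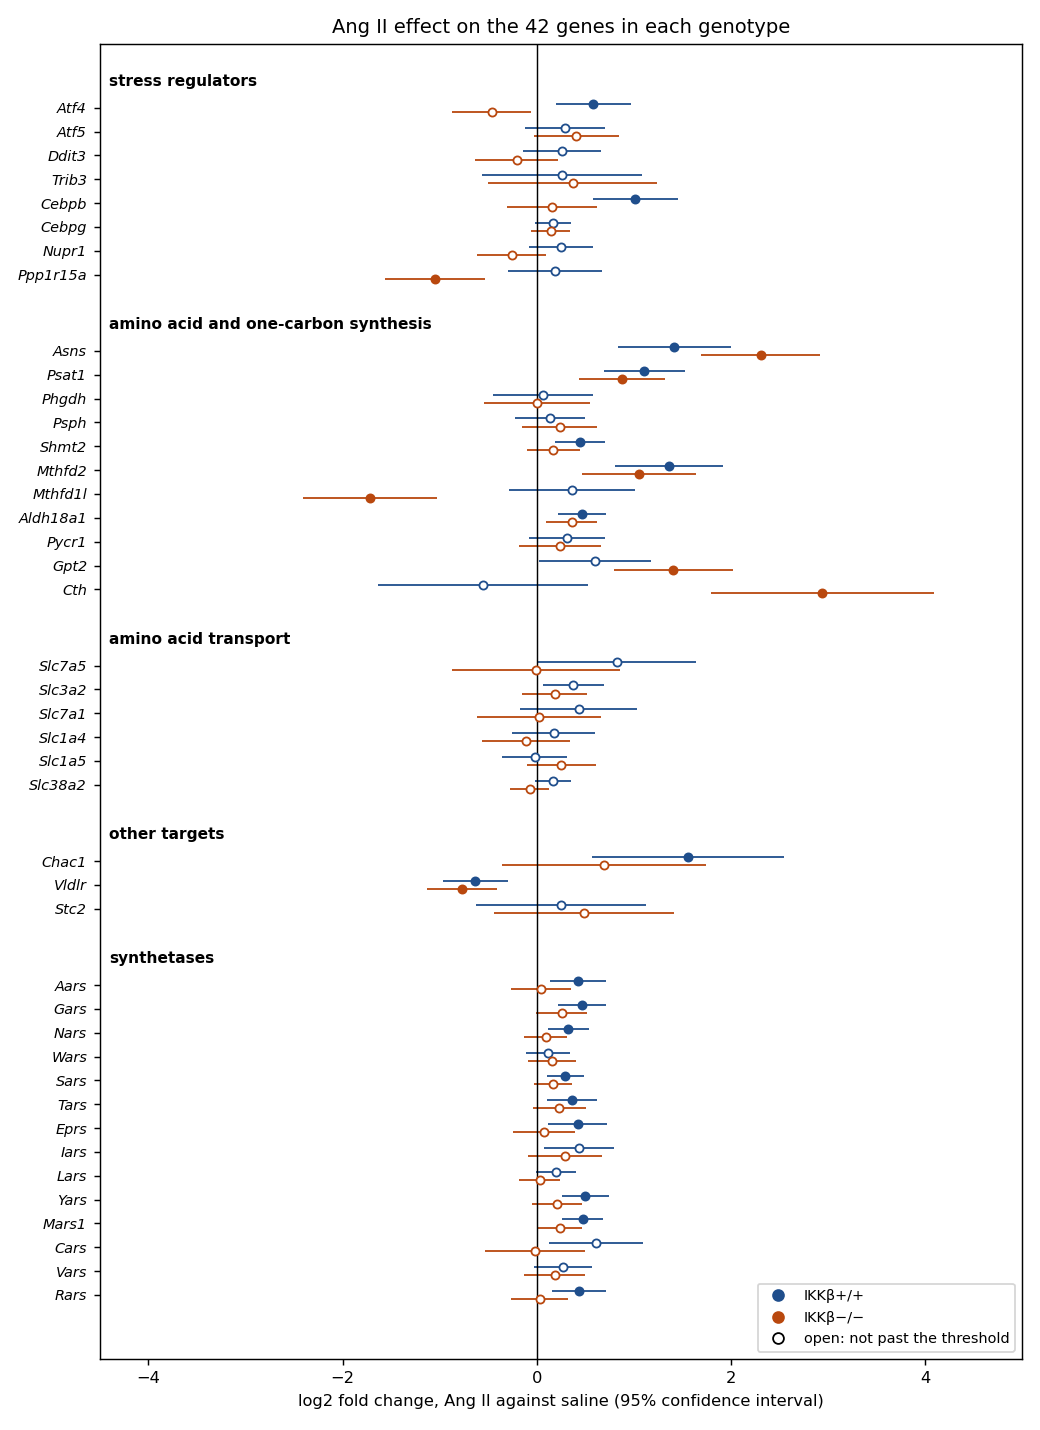
Log2 fold change of Ang II against saline (x axis) for the 42 genes, grouped by role on the y axis, in IKKβ+/+ (blue) and IKKβ-/- (dark orange) mice, with 95% confidence intervals. Filled points passed the threshold: 18 in IKKβ+/+ and 8 in IKKβ-/- mice, with 9 blue and 0 dark orange filled points among the synthetases.

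Atf4 itself (ENSMUSG00000042406.8, chromosome 15, 80255184 to 80257541 on GRCm38) rose in IKKβ+/+ mice (log2 fold change 0.58, SE 0.18, adjusted p = 0.0762). It had 1959.9, 2275, 2463, 1999.5 and 2167 normalized counts in the saline-infused mice X2370, X2372, X2373, X2376 and X2378, and 5631, 3022, 2182, 3374 and 2861 in the Ang II-treated mice X2350, X2352, X2356, X2358 and X2359, the order used for all genes. Mouse X2350 was far above the rest and X2356 lay among the saline-infused mice, so the groups overlapped. The rise was 0.38 on the log2 scale without X2350 and no longer passed. Cebpb (ENSMUSG00000056501.3, chromosome 2, 167688915 to 167690418), a C/EBP factor that partners ATF4 and also acts in inflammation, was 2.02-fold higher (log2 fold change 1.01, SE 0.21, adjusted p = 0.0122). It went from 232, 245, 246, 212 and 227 to 611, 380.0, 399, 582 and 423 normalized counts, with all treated mice above all controls. The call on Cebpb held with each mouse left out in turn.

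The other 6 stress regulators did not pass in IKKβ+/+ mice. Their log2 fold changes were 0.29 for Atf5, an ATF4-related factor, 0.26 for Ddit3 (CHOP), the factor of the late stress response, and 0.26 for Trib3, a pseudokinase that restrains ATF4. They were 0.17 for Cebpg, which dimerizes with ATF4, 0.25 for Nupr1, a small stress cofactor, and 0.19 for Ppp1r15a (GADD34), the subunit that directs the phosphatase to eIF2α. X2350 was again apart from its group in Trib3 (185 normalized counts, with 42.04 to 72.6 in the other 4 treated mice) and Ddit3 (329.9, with 241 to 259). The genes of Ddit3 and Mars1 overlap by 68 bp on opposite strands of chromosome 10. The libraries were stranded, but the strand setting of the counting is not given in the sources used here.

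Among the enzymes of amino acid and one-carbon synthesis, 3 had the clearest rises. Asns (asparagine synthetase, ENSMUSG00000029752.12, chromosome 6, 7675169 to 7693254) had 98.5, 59.5, 86.4, 52.2 and 50.2 normalized counts in saline-infused and 242, 169, 223, 185 and 112 in Ang II-treated IKKβ+/+ mice. The lowest treated mouse lay above the highest control, and the difference was 2.67-fold (log2 fold change 1.42, SE 0.28, adjusted p = 0.0089). Mthfd2 (ENSMUSG00000005667.8, chromosome 6, 83305691 to 83325908), the mitochondrial folate enzyme, went from 267, 296, 399, 162 and 197 to 1005, 567, 529.8, 702 and 545. The groups did not overlap (log2 fold change 1.36, SE 0.27, adjusted p = 0.00868). Psat1 (ENSMUSG00000024640.9, chromosome 19, 15904678 to 15947337), the aminotransferase of serine synthesis, went from 188, 108, 134, 115 and 138 to 336, 270.0, 244, 389 and 236, again without overlap (log2 fold change 1.11, SE 0.20, adjusted p = 0.00601). All 3 calls held with each mouse left out in turn, and under each of the 15 other settings tried.

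Smaller rises were found for Aldh18a1, which starts proline synthesis from glutamate, and Shmt2, which splits serine in mitochondria. Aldh18a1 had 949.7, 806, 712, 650.4 and 675 normalized counts with saline and 1119, 1123, 796, 1131 and 1065 with Ang II (log2 fold change 0.47, SE 0.12, adjusted p = 0.0317), and X2356 was the 1 treated mouse inside the range of the controls. Shmt2 had 313, 298, 297, 260.1 and 326 with saline and 402, 389.6, 372, 403 and 462 with Ang II, without overlap (log2 fold change 0.44, SE 0.12, adjusted p = 0.0483). The other steps of the serine pathway did not pass. Phgdh, the first enzyme, had a log2 fold change of 0.06 (95% confidence interval -0.45 to 0.58), and Psph, the last, one of 0.14 (-0.23 to 0.50). Pycr1, which completes proline synthesis, had 0.31, Mthfd1l, which makes formate in mitochondria, 0.36, Gpt2, the mitochondrial alanine aminotransferase, 0.60, and Cth, which makes cysteine from cystathionine, -0.55, none past the threshold.

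Mouse X2350 was the highest of its group in 4 of the 6 amino acid transporters. Slc7a5 (LAT1, the exchanger of large neutral amino acids) had 1009, 245, 191, 363 and 253 normalized counts in the treated and 197, 179, 258, 119.6 and 225 in the saline-infused IKKβ+/+ mice. X2350 was apart from its group, and the difference did not pass (log2 fold change 0.83, SE 0.39, adjusted p = 0.236). Its heavy chain Slc3a2 (log2 fold change 0.37, adjusted p = 0.162) and the arginine transporter Slc7a1 (0.43, adjusted p = 0.42) were also highest in X2350. Slc3a2 had 943 to 1056 normalized counts in the other treated mice and 703 to 1003 with saline. Limma called Slc3a2 with array weights, with only the groups compared, or with mitochondrial mRNA as a covariate. It called Slc7a5 with the mitochondrial or the immediate early covariate. The neutral amino acid carriers Slc1a4, Slc1a5 and Slc38a2 had log2 fold changes of 0.17, -0.02 and 0.17.

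Chac1 (ENSMUSG00000027313.3, chromosome 2, 119351229 to 119354381), which breaks down glutathione, rose from few reads (log2 fold change 1.56, SE 0.47, adjusted p = 0.0641). It had 11.98, 13.5, 21.1, 17.1 and 13.5 normalized counts with saline and 204, 30.95, 16.5, 47.8 and 42.7 with Ang II. X2350 was highest by far and X2356 lay within the controls. Without X2350 the log2 fold change was 1.03 and did not pass. Vldlr (ENSMUSG00000024924.14, chromosome 19, 27216484 to 27254231), the very low density lipoprotein receptor, fell (log2 fold change -0.63, SE 0.16, adjusted p = 0.0338), although the gene is known as an ATF4 target. Its values were 2840.4, 2776, 3433, 2687 and 3425 with saline and 1704, 2011, 2041, 1909 and 2081 with Ang II, so that all treated mice were lower than all controls.

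The cytosolic synthetases, which load amino acids onto tRNA, rose by small amounts in IKKβ+/+ mice where they passed. All 14 were above 0 (log2 fold changes from 0.12 for Wars to 0.61 for Cars), and 9 passed. Yars (tyrosine) went from 539, 532, 564, 459.5 and 531 to 1022, 731, 656, 770.1 and 591 normalized counts (log2 fold change 0.50, SE 0.12, adjusted p = 0.0199). Mars1 (methionine) went from 525, 530.4, 513, 422 and 443 to 715, 614, 608, 738 and 696 (log2 fold change 0.47, SE 0.10, adjusted p = 0.015). In both genes every treated mouse was above every control, and both calls held with each mouse left out. Gars (glycine) went from 1098, 1021, 1167, 971 and 922 to 1715, 1431, 1202, 1638 and 1232 (log2 fold change 0.47, SE 0.12, adjusted p = 0.032). Rars (arginine) went from 659, 718, 782, 781 and 674 to 1044, 866, 804, 1279 and 937 (log2 fold change 0.43, SE 0.13, adjusted p = 0.0694). These 2 genes were also without overlap. The call on Gars was lost without X2350 or without X2358, and that on Rars in 6 of the 19 fits that left out a mouse, all of them fits without an IKKβ+/+ mouse.

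The groups overlapped in the other 5 synthetases that passed. With the clock score as a covariate none of these 5 passed. Aars (alanine) had 1324, 1306, 1445, 1016 and 1058 normalized counts with saline and 2229, 1641, 1309, 1801 and 1369.7 with Ang II (log2 fold change 0.43, SE 0.14, adjusted p = 0.0809). Nars (asparagine) had 1634, 1692, 1882, 1607 and 1406 and 2428, 1934, 1891, 2396 and 1702 (log2 fold change 0.32, SE 0.10, adjusted p = 0.0684). Sars (serine) had 930.4, 950.4, 1062, 942 and 837 and 1337, 1052, 1177, 1211 and 1026 (log2 fold change 0.29, SE 0.09, adjusted p = 0.0649). In each of these genes 1 or 2 treated mice lay within the range of the controls. Tars (threonine) had 854, 947, 978, 783 and 813 and 1317, 981, 861, 1373 and 1155 (log2 fold change 0.36, SE 0.12, adjusted p = 0.0993). Eprs, the fused glutamate and proline enzyme, had 1951, 1828, 2186, 1546 and 1782 and 3852, 2208, 1982, 2408.6 and 2260.3 (log2 fold change 0.42, SE 0.14, adjusted p = 0.0983). Tars and Eprs passed narrowly, and each held in 6 of the 19 fits that left out a mouse. Cars, Iars, Vars, Lars and Wars did not pass in limma, with adjusted p between 0.14 and 0.602. DESeq2 called Cars and Iars too, 11 of the 14 synthetases in all, and limma with mitochondrial mRNA as a covariate called Iars and Vars. Wars, the tryptophan enzyme that interferon-γ also induces, had the smallest change of the 14 synthetases, and 14 of 16 interferon-γ response genes fell in the same comparison (median log2 fold change -1.12). The part of the latter in the level of Wars was not tested.

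The rise was not shared by every kind of synthetase gene. Of 9 other genes for cytosolic synthetases and their complex, 2 rose, Eef1e1 (a subunit of the complex, 1.09) and Hars (histidine, 0.36), and all 9 values were above 0 with a median of 0.26. Of the 17 mitochondrial synthetases none passed in limma, edgeR or DESeq2, the median was 0.00, 1 gene had an unadjusted p under 0.05 and 9 values were above 0. With Ang II in IKKβ-/- mice none of these 9 and 17 genes passed by any of the 3 tools, and 1 and 2 of them had an unadjusted p under 0.05. The differences between these lists were not tested.

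**Figure D2:**
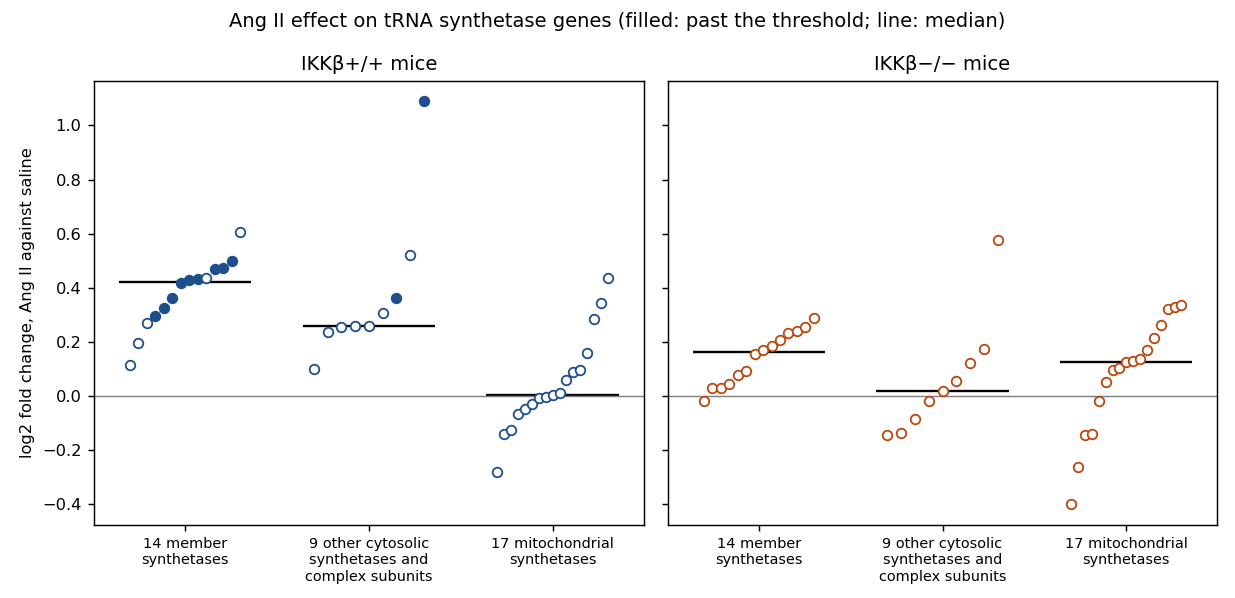
Log2 fold change of Ang II against saline (y axis), 1 point per gene in order of size, for the 14 cytosolic synthetases of the set, 9 other cytosolic genes and 17 mitochondrial synthetases, in IKKβ+/+ mice (left) and IKKβ-/- mice (right). The medians (lines) were 0.42, 0.26 and 0.00 on the left and 0.16, 0.02 and 0.12 on the right, where no filled point is found.

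Promoters were read for the C/EBP-ATF response element, searched as TGATGNAA on both strands from 250 bases before to 50 after each start site (RefSeq, GRCm38.p6). Of the 33 members with a promoter in the table, 12 (36.36%) held it, against 4.511% of all 27025 genes. By role it was in 5 of 8 synthetases, 2 of 10 synthesis enzymes, 2 of 8 stress regulators, 2 of 3 other targets and 1 of 4 transporters. None of 8 other cytosolic synthetase genes and none of 14 mitochondrial synthetases held it. The members were chosen as known ATF4 genes, so that this share is a description and not a finding. Cth, Slc7a5, Slc1a5, Nars, Wars, Lars, Cars, Vars and Rars had no promoter in the table. Of the 12 genes with the element 6 rose and 1 fell with Ang II in IKKβ+/+ mice (median log2 fold change 0.39), and of the 21 with a promoter that lacked these letters 9 rose (median 0.37). Psat1 and Mthfd2, 2 of the largest rises, were among the 21. A match is a run of letters, not a shown binding site, and its absence says only that these letters are not in this window.

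The 6 stretches that follow lie upstream of the RefSeq start of genes that passed in IKKβ+/+ mice and are shown because the element, in capitals and often read in its reverse form, sits in each of them at another distance. They are written 5′ to 3′ on the strand of the gene and end at or before its start site.
Asns, chr6:7693210-7693292, minus strand: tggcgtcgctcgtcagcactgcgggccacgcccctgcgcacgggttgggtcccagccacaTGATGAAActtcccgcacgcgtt
Chac1, chr2:119350992-119351116, plus strand: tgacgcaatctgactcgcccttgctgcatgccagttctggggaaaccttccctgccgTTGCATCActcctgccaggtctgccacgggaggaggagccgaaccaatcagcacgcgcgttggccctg
Vldlr, chr19:27216770-27216887, plus strand: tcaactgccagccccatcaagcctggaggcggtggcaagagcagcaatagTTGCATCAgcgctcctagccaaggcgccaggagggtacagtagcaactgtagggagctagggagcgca
Aars, chr8:111033670-111033797, plus strand: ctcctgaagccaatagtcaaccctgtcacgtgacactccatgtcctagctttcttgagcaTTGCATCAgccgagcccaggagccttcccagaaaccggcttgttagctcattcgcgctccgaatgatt
Gars, chr6:55037911-55038000, plus strand: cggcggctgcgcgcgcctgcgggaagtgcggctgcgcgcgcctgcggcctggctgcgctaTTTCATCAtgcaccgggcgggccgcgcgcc
Tars, chr15:11399659-11399733, minus strand: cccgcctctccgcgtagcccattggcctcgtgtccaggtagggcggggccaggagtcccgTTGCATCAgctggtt
The first base of the element lay 23 bases before the start of Asns, 193 before Chac1, 200 before Vldlr, 112 before Aars, which has another 9 bases after its start, 30 before Gars and 15 before Tars. TTGCATCA stood in Chac1, Vldlr, Aars and Tars, and of these Chac1 had the largest rise and Vldlr the fall, the first with a log2 fold change of 1.56 and the second with -0.63 in the same mice.

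**Figure D3:**
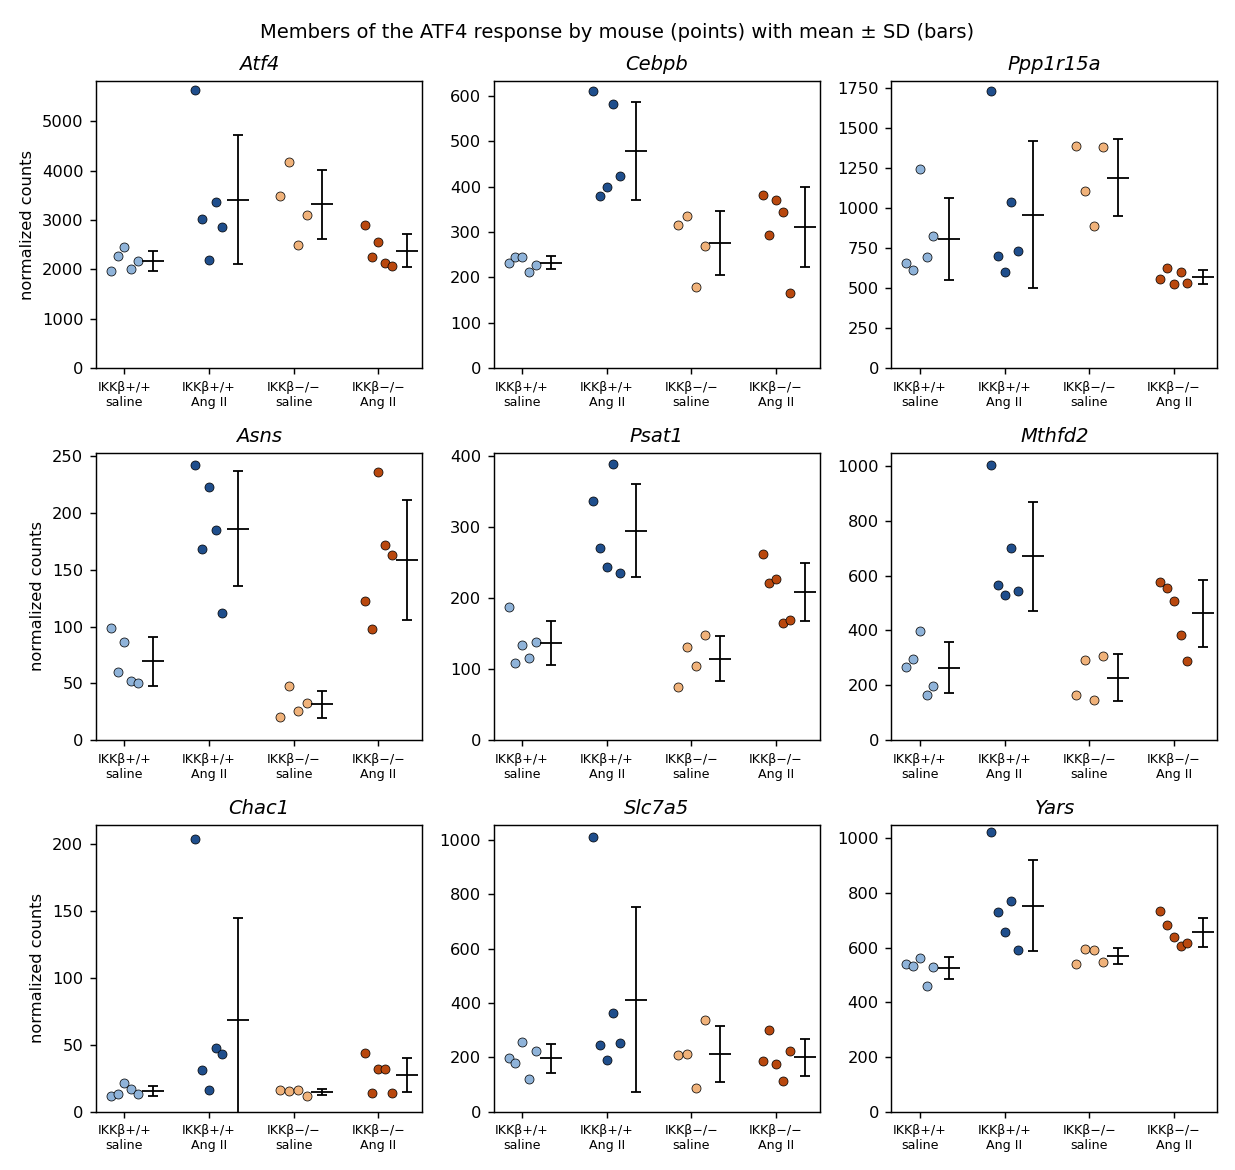
Normalized counts (y axis, from 0) of 9 members in each mouse (points) of the 4 groups, with mean ± SD beside them (the lower bar of Chac1 is cut at 0). In Asns, Psat1, Mthfd2, Cebpb and Yars the Ang II-treated IKKβ+/+ mice all lie above the saline-infused ones, and 1 treated mouse, X2350, stands far above the rest in Atf4, Chac1 and Slc7a5.

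Within the Ang II-treated IKKβ+/+ mice the members did not move to the same degree. X2350 was the highest of all 19 mice in 19 of the 42 genes, among them 8 of 14 synthetases, 4 of 8 stress regulators and 4 of 6 transporters, but only 2 of 11 synthesis enzymes. X2356 was the lowest of its group in 24 genes. Without X2350 the count in IKKβ+/+ mice fell from 18 to 7 genes, and 2 synthetases of 9 were left, Mars1 and Yars. It was 8 without X2358, and 10, 11, 9 and 10 without the saline-infused mice X2370, X2372, X2376 and X2378. Aldh18a1, Asns, Cebpb, Mars1, Mthfd2, Psat1 and Yars passed in all 19 fits that left out a mouse. Role scores were formed by centring the log2 value of each gene on its average in the 19 mice and averaging these deviations in each mouse. For the synthesis enzymes all 5 treated mice were above all 5 controls (mean difference 0.52). For the synthetases and the stress regulators 4 of 5 were (0.38 and 0.38), and for the transporters 4 of 5 (0.32), with X2356 below all controls. X2350 also had the highest immediate early gene score of its group, 0.87, with -0.64 to 0.35 in the other 4, and the part of this in its levels was not tested.

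**Figure D4:**
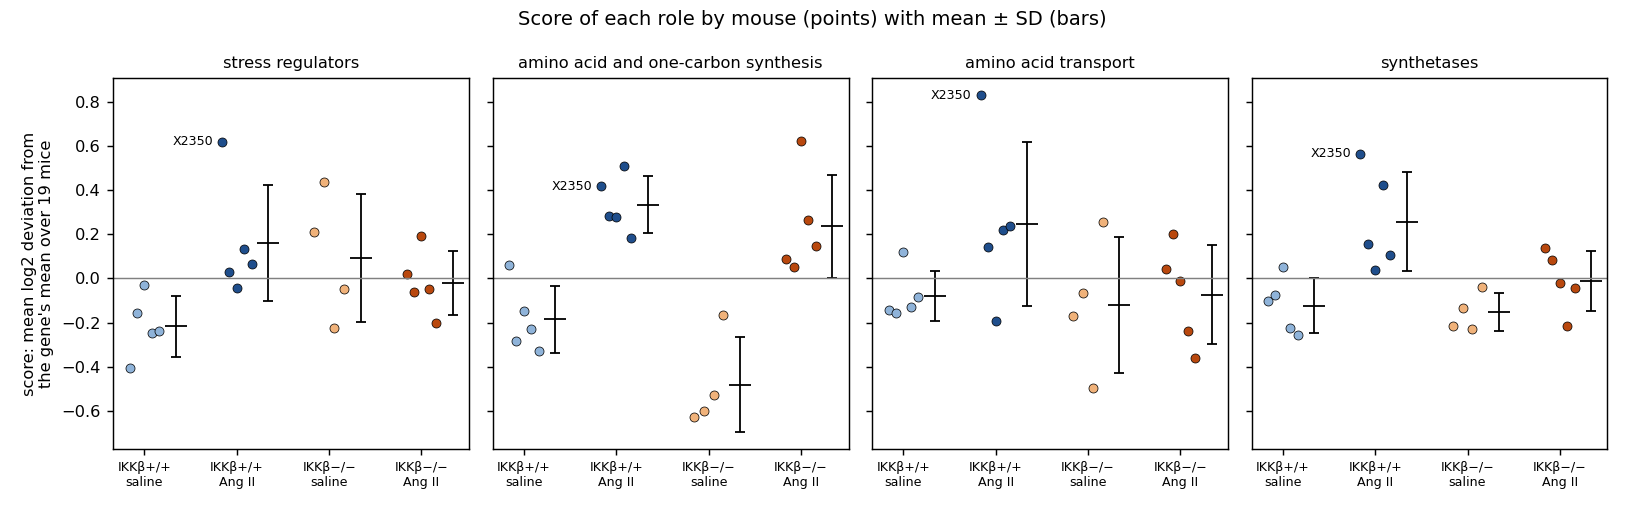
Score of each role (y axis, mean log2 deviation from the mean of each gene over the 19 mice) in each mouse (points), with mean ± SD. Ang II-treated IKKβ+/+ mice were above saline-infused ones in all 4 roles on average, by 0.38, 0.52, 0.32 and 0.38 from left to right. In IKKβ-/- mice these mean differences were -0.11, 0.72, 0.05 and 0.14. The 0.72 is an average over genes that includes the 2.94 of Cth. The median log2 fold change of the synthesis enzymes was 0.36 in IKKβ-/- and 0.44 in IKKβ+/+ mice.

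In IKKβ-/- mice 5 genes rose with Ang II, all of them synthesis enzymes, and 3 fell, from 3 roles. The 11 synthesis enzymes had a median log2 fold change of 0.36, against 0.44 in IKKβ+/+ mice. Over all genes tested 2.59% rose and 2.69% fell. The median of the 42 genes was 0.17, against 0.00 over all genes, and 32 of 42 values were above 0 (49.6% of all genes). It was 0.09 without X2406, and 0.39 with the immediate early score as a covariate, which did not overlap between these groups. Groups did not overlap in 5 genes higher and 3 lower with Ang II, where the shares over all genes were 2.41% and 2.88%. None of the 14 synthetases passed (median 0.16), 13 of them were above 0 and 1, Mars1, had an unadjusted p under 0.05. DESeq2 and the edgeR test called none of them either. Yars was the 1 synthetase without overlap, with 539, 594, 593 and 547 normalized counts in saline-infused and 735, 683, 640.3, 607 and 618 in Ang II-treated mice (log2 fold change 0.21, SE 0.12, adjusted p = 0.4). Asns, Psat1, Mthfd2 and Vldlr were the 4 genes that passed in both genotypes, each in the same direction.

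Asns had the smallest p of the set in IKKβ-/- mice. It went from 20.3, 47.4, 25.2 and 32.7 normalized counts in the saline-infused mice X2401, X2403, X2406 and X2409 to 123, 97.6, 237, 172 and 163 in the treated mice X2380, X2383, X2384, X2385 and X2386, again the order for all genes, 4.94-fold (log2 fold change 2.30, SE 0.29, adjusted p = 0.000605). All treated mice were above all controls. Psat1 went from 75.3, 131, 104 and 147 to 262, 221, 226, 165 and 168, without overlap (log2 fold change 0.88, SE 0.21, adjusted p = 0.0282). Mthfd2 went from 164, 293, 146 and 308 to 578, 555, 507, 382 and 287 (log2 fold change 1.05, SE 0.28, adjusted p = 0.0494), with 1 treated mouse, X2386, inside the range of the controls. Its call was lost in 3 of the 19 fits that left out a mouse. Aldh18a1 had 665, 625, 659 and 795 and 961, 917, 792, 817 and 904, a difference that did not pass (log2 fold change 0.36, SE 0.12, adjusted p = 0.129).

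Gpt2 and Cth rose in IKKβ-/- mice. Gpt2 (ENSMUSG00000031700.11, chromosome 8, 85492576 to 85527560) had 116, 141, 115 and 107 normalized counts with saline and 225, 196, 531, 458 and 299 with Ang II (log2 fold change 1.41, SE 0.29, adjusted p = 0.015). Cth (ENSMUSG00000028179.12, chromosome 3, 157894248 to 157925077) had 1.93, 0, 1.802 and 5.08 with saline and 10.2, 11.1, 38.04, 43.4 and 14.1 with Ang II (log2 fold change 2.94, SE 0.55, adjusted p = 0.00827). The groups did not overlap in either gene, and in both the highest mice were X2384 and X2385. Cth had the lowest level per kilobase of exon of the 42 genes, and its values rest on 10 reads in the 4 saline-infused and 99 reads in the 5 treated mice. It met the filter, at least 10 normalized counts in 4 mice, only through the treated IKKβ-/- mice, where it was highest. The entry of Cth into the tests was thus not independent of this rise, which also passed with no filter on low values. Mice X2384 and X2385 had by far the most adipocyte mRNA: the 6 adipocyte markers summed to 20952 and 25375 normalized counts in them, to 1266 to 4614 in the other 3 treated mice and to 169 to 647 in the saline-infused ones. All 5 adipocyte markers tested rose in this comparison (median log2 fold change 4.46), and none of the 6 was at 0 throughout a group. Without X2384 and X2385 the log2 fold change of Gpt2 was 0.98 and did not pass, while Cth, Asns, Psat1, Mthfd1l and Vldlr passed and Ppp1r15a and Mthfd2 did not. With the adipocyte score as a covariate none of the 8 genes passed, and over all genes 3 did, and the score did not overlap between the IKKβ-/- groups. In that fit adipocyte RNA cannot be told apart from the treatment.

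The 3 genes that fell in IKKβ-/- mice were Mthfd1l, Ppp1r15a and Vldlr. Mthfd1l (ENSMUSG00000040675.17, chromosome 10, 3973118 to 4167081) had 137, 90.6, 222 and 144 normalized counts with saline and 46.2, 34.9, 51.8, 22.5 and 70.7 with Ang II (log2 fold change -1.72, SE 0.33, adjusted p = 0.00958), opposite in sign to Mthfd2 although both enzymes serve the mitochondrial folate cycle. Ppp1r15a (ENSMUSG00000040435.12, chromosome 7, 45522916 to 45526268) had 1391, 1105, 888 and 1379.5 with saline and 557, 625, 527, 599 and 532 with Ang II (log2 fold change -1.05, SE 0.25, adjusted p = 0.0254). Vldlr had 3491, 2976, 3529 and 3430.3 and 1723, 2617, 1196, 2023 and 2676 (log2 fold change -0.77, SE 0.17, adjusted p = 0.0195). In all 3 the treated mice lay below every control. With saline the IKKβ-/- and IKKβ+/+ means were 148 and 73.2 for Mthfd1l, 1191 and 807 for Ppp1r15a, and 3357 and 3032 for Vldlr. None of these differences passed in the main limma fit. The levels with saline and the size of the falls are not independent. Immediate early genes moved with Ppp1r15a: 9 of 12 fell in IKKβ-/- mice (median log2 fold change -1.81), and their sum was 15047 to 42730.2 normalized counts in the saline-infused and 6678 to 7482 in the treated mice. With their score as a covariate Ppp1r15a had a log2 fold change of -0.10. That score did not overlap between the IKKβ-/- groups, so in this fit it cannot be told apart from the treatment. The part of the immediate early genes in the fall was not tested. Clock genes moved in this comparison as well (3 of 14 rose and 8 fell), with sums of 18638 to 26155 normalized counts with saline and 9912 to 13968 with Ang II. With the clock score as a covariate Asns alone of the 8 genes passed, where 25 of all genes did. The clock score did not overlap between the IKKβ-/- groups either, and has the same limit. It is also an average over genes that moved in opposite directions.

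**Figure D5:**
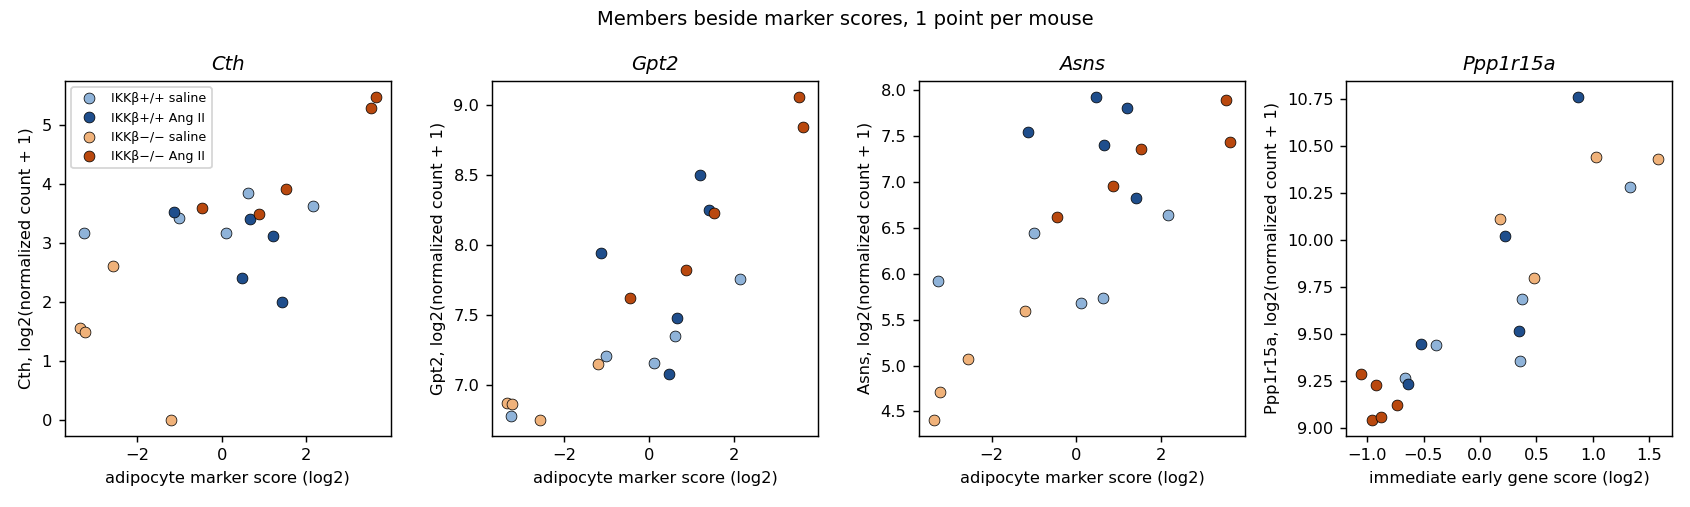
Log2(normalized count + 1) of Cth, Gpt2 and Asns (y axes) against the adipocyte marker score, and of Ppp1r15a against the immediate early gene score, 1 point per mouse, coloured by group. The 2 IKKβ-/- Ang II-treated mice at the far right of the first 3 plots are X2384 and X2385, and the 5 mice of that group lie at the low end of the fourth.

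The stress regulators and transporters gave no rise past the threshold in IKKβ-/- mice. Atf4 had 3488, 4176, 2502 and 3106 normalized counts in saline-infused and 2892, 2256, 2556, 2128 and 2073 in Ang II-treated mice, a difference that did not pass (log2 fold change -0.47, SE 0.20, adjusted p = 0.218). Atf4 was thus lower on average in the treated mice while Asns, Psat1 and Mthfd2 were higher. Cebpb had 317, 336, 178 and 269 and 382, 293, 371, 344 and 165 (log2 fold change 0.16, SE 0.22, adjusted p = 0.776), and the groups overlapped. The log2 fold changes of the other 5 regulators, without Ppp1r15a, lay between -0.26 for Nupr1 and 0.41 for Atf5, and those of the 6 transporters between -0.11 for Slc1a4 and 0.25 for Slc1a5. Chac1 had 0.69 and Stc2, a secreted glycoprotein of the stress response, 0.49. None of these passed.

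Whether the response differed between the genotypes was tested as the difference of the 2 effects. None of the 42 genes passed in limma, nor did any gene (0%), and 7 of the 42 had an unadjusted p under 0.05, where the share over all genes was 11.1%. The edgeR test called none and DESeq2 called 4, Atf4, Ppp1r15a, Mthfd1l and Cth. The share of all genes that DESeq2 called is not given here, so its count has no background beside it. The 7 were Atf4 (-1.05 on the log2 scale, IKKβ-/- minus IKKβ+/+, SE 0.27), Ppp1r15a (-1.23), Mthfd1l (-2.08), Cebpb (-0.86), Nupr1 (-0.51), Asns (0.89) and Cth (3.49). Of these, Cth met the filter only through the Ang II-treated IKKβ-/- mice. The median over the 42 genes was -0.22, and 0.02 with the immediate early score as a covariate. The difference was below 0 for 13 of 14 synthetases, with a median of -0.22, and no synthetase had an unadjusted p under 0.05. The 9 synthetases that passed in IKKβ+/+ mice were thus not shown to respond differently in IKKβ-/- mice. For Aars the difference was -0.38 (95% confidence interval -0.80 to 0.04), and for Yars -0.29 (-0.64 to 0.06).

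With saline, 2 genes were lower in IKKβ-/- than in IKKβ+/+ mice and none was higher in the main limma fit, where 2.07% of all genes were lower and 3.4% higher. Of the 8 stress regulators 7 had values above 0 (median 0.29). An unadjusted p under 0.05 was reached by 4 of them, where the share over all genes was 19.2%. Limma with only the groups compared also called Atf4 and Mthfd1l. With array weights it also called Atf4, Ddit3, Ppp1r15a and Mthfd1l. Asns (log2 fold change -1.14, SE 0.29, adjusted p = 0.0575) and Cth (log2 fold change -2.03, SE 0.55, adjusted p = 0.0633) were lower in all 4 IKKβ-/- mice than in any of the 5 IKKβ+/+ mice, with the IKKβ-/- values given above and 11.3, 7.94, 9.69, 13.3 and 7.97 normalized counts of Cth in IKKβ+/+ mice. The same IKKβ-/- saline-infused mice are the controls of the Ang II comparison in that genotype, so their low level here and the size of the rise there are not independent. Cth was tested here only because the Ang II-treated IKKβ-/- mice brought it past the filter. The call on Asns was lost in 4 and that on Cth in 6 of the 19 fits that left out a mouse, all of them fits without a saline-infused mouse. The count of genes ranged from 0 to 5 (0 without X2370, X2373, X2401 or X2406). The edgeR test called Asns and, as higher, Mthfd1l. DESeq2 called Asns and Cth lower, and Atf4 and Mthfd1l higher. Atf4 pointed the other way in limma: its 4 IKKβ-/- mice were all above the IKKβ+/+ mice, but the difference did not pass (log2 fold change 0.59, SE 0.20, adjusted p = 0.109). Slc38a2 (SNAT2) was also without overlap, at 5793, 5416, 5761 and 5879 against 4539, 4906, 5294, 5319 and 5139 normalized counts (log2 fold change 0.18, SE 0.10, adjusted p = 0.299). Over all genes the groups did not overlap in 4.68% with IKKβ-/- higher and 4.08% with IKKβ-/- lower. All 5 adipocyte markers had values below 0 in this comparison too (median -2.36, all 5 with an unadjusted p under 0.05, none past the threshold in limma, Cfd in the edgeR test and all 5 in DESeq2), and the 6 listed summed to 185 to 8080 normalized counts in IKKβ+/+ and 169 to 647 in IKKβ-/- mice. Of 14 clock genes 9 were higher and 3 lower in IKKβ-/- mice, with sums of 7966 to 19257 and 18638 to 26155. With either score, or with mitochondrial mRNA, as a covariate neither call passed. The clock score, an average over genes that moved in opposite directions, did not overlap between these groups. In its fit it thus cannot be told apart from the genotype. All 6 macrophage markers were below 0 as well (median -0.85), Adgre1 (-1.02) and Cd68 (-0.93) passed, DESeq2 called 4, and the sums were 6703 to 8749 normalized counts in IKKβ+/+ and 4006 to 5744 in IKKβ-/- mice. All 6 endothelial (median -0.85) and all 6 fibroblast markers (median -0.49) had values below 0, none past the threshold in limma or edgeR, and DESeq2 called Vwf. The part of these lists in the calls was not tested.

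With Ang II, none of the 42 genes passed between the genotypes in limma, where 0.128% of all genes did, and none was without overlap (1.54% of all genes). An unadjusted p under 0.05 was reached by 17 of the 42, where the share over all genes was 14.3%. The edgeR test called none and DESeq2 called 7, Cebpb, Ppp1r15a, Mthfd1l, Cth, Slc7a1, Aars and Rars. The 0.128% is the share in limma. That of DESeq2 over all genes is not given here, so its count has no background beside it. All 14 synthetases were lower on average in IKKβ-/- mice (median -0.24, from -0.47 for Aars to -0.06 for Sars), and 32 of the 42 genes were, where 49.1% of all genes were higher. Of the 9 other cytosolic genes all were lower too (median -0.28), and 9 of the 17 mitochondrial synthetases were higher. All 8 smooth muscle markers (median -0.29), 12 immediate early genes (-0.86) and 6 macrophage markers (-0.28) were lower as well. All 5 adipocyte markers tested were higher (1.31), as were 4 of 6 fibroblast and 2 of 6 endothelial markers. None of these passed in limma. The median of the 42 genes was -0.23, and -0.12 with the immediate early score as a covariate, which did not overlap between these groups. The part of these lists in the differences was not tested. Without X2356 8 genes passed, Atf4, Ppp1r15a, Mthfd1l, Slc7a1, Aars, Tars, Iars and Rars. The share over all genes in that fit is not given here either. Cth, which met the filter only through the Ang II-treated IKKβ-/- mice, was the gene with the largest difference, 1.46 (SE 0.52, adjusted p = 0.225).

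Genes around the pathway were counted from lists of general knowledge, chosen with earlier results of these data known. Of 15 genes for the eIF2 kinases, eIF2 and its exchange factor, 1 fell with Ang II in IKKβ+/+ mice, Impact, an inhibitor of GCN2 (-0.37), and none passed in IKKβ-/- mice in limma, edgeR or DESeq2, where 2 had an unadjusted p under 0.05. DESeq2 called Eif2s2 and Eif2b3 higher in IKKβ+/+ mice and edgeR Eif2s2. Of 13 further ATF4 targets tested, 3 rose in IKKβ+/+ mice, Cdsn (1.87), Ddit4, which restrains mTORC1 (0.96), and Eif4ebp1, which holds back translation (0.41). In IKKβ-/- mice 3 rose, Slc43a1 (0.98), Bcat1 (0.73) and Eif4ebp1 (0.63), and Atf3 fell (-4.18). Atf3 had 888 to 11849 normalized counts in the saline-infused and 153 to 376 in the treated IKKβ-/- mice. With saline it was higher in IKKβ-/- than in IKKβ+/+ mice (log2 fold change 2.40, adjusted p = 0.0971), which had 385 to 1448. The same saline-infused mice are the controls of the fall, so the 2 results are not independent. Of 20 other serine, glycine and one-carbon genes, Got1, the cytosolic aspartate aminotransferase, was among those that rose in IKKβ+/+ mice (0.89), and none passed in IKKβ-/- mice in limma or edgeR, with 4 at an unadjusted p under 0.05 and 2 called by DESeq2 (Aldh1l1 and Gpt). Of 15 other amino acid transporters none passed in IKKβ+/+ mice in limma or edgeR (3 at an unadjusted p under 0.05, and Slc38a3 lower in DESeq2), and in IKKβ-/- mice Slc1a3 rose (1.94) and Slc38a3 (-2.59) and Slc6a6 (-0.59) fell.

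A list of endoplasmic reticulum genes that answer mainly to ATF6 and XBP1 was counted too. It held mostly chaperones, and also Xbp1, Sel1l and Syvn1, which are not chaperones. Of its 15 genes 3 rose with Ang II in IKKβ+/+ mice (median 0.37) and 10 in IKKβ-/- mice (median 0.78). An unadjusted p under 0.05 was reached by 12 and 13, where the shares over all genes were 20.3% and 17.8%. Above 0 were 14 and 15 values. None passed for the difference of the 2 effects in limma, and 5 had an unadjusted p under 0.05. Sdf2l1 had the largest rise in both genotypes, 0.90 and 2.02. The synthetases had 9 and 0 of 14 rises in the same 2 comparisons. With saline 4 of the 15 genes (10 in DESeq2) were lower in IKKβ-/- than in IKKβ+/+ mice. The differences between these lists were not tested.

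Levels between genes were compared per kilobase of exon, as means over the 19 mice. The highest were Nupr1 (1319.8 normalized counts per kilobase), Atf5 (1316), Atf4 (1185) and Slc38a2 (617). Synthetases lay between 72.1 (Cars) and 412 (Nars), and the enzymes of amino acid and one-carbon synthesis between 3.98 (Cth) and 209 (Aldh18a1). Asns, at 42.3, and Psat1, at 45.2, were among the lower genes, and Chac1 at 19.8. The mean of Aars in IKKβ+/+ mice was 1669.8 normalized counts with Ang II and 1229.8 with saline, and that of Asns 186 and 69.4.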

How the data were processed

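Total RNA from the SRA of 19 mice was sequenced as stranded libraries, and per the study's methods and the submitters' processing notes the authors trimmed reads with Trimmomatic 0.35, aligned and counted them with STAR 2.7.1a on GRCm38 and scaled the read counts with DESeq2 1.30.1 (RSEM served for TPM values, not used here). The deposited table of the whole series holds these normalized counts (a signal per gene, not whole numbers) for each mouse, and 100% of the values were whole multiples of 1 read (tolerance 0.01 read), so that reads could be recovered for count tests. Depth was 11382573 to 19906694 reads per mouse, and lowly counted genes such as Cth and Chac1 are the least precise. The table also names each gene and its position.

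Genes with at least 10 normalized counts in 4 mice (14845 of 20408) were tested with limma 3.58.1 (R 4.3.3) on log2(value + 1), 1 mean per group and a mean-variance trend, with Benjamini-Hochberg adjustment over all genes tested. The threshold was an adjusted p of 0.1 and a 1.2-fold change. This differs from the count model of the study, since the values are not counts. edgeR 4.0.16 and DESeq2 1.42.0 on the recovered reads, other scaling, filters and pseudocounts, array weights, marker scores as covariates and each mouse left out were alternatives. On simulated reads for 14652 genes of the IKKβ+/+ comparison limma found 52% of the genes changed 1.5-fold, 84% at 2-fold and 98% at 4-fold, with 14 false calls. Smaller changes were not simulated, and the changed genes were drawn from those at levels above Cth and Chac1. On the same reads edgeR made 15 false calls and DESeq2 52, so a gene called by DESeq2 alone is less certain. No pair of mice within a group (36 pairs) agreed within sampling noise. Promoters came from RefSeq on GRCm38.p6, matched by symbol.

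The members and the gene lists were chosen with earlier results of these data known. Every member that passed in a comparison is named, as are members whose groups did not overlap, and the others are given by role. A result on 1 gene of the other lists is not reported here. Mice are separate animals, and p-values measure the spread between them.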

Additional observations from a re-analysis of the deposited data

Results flagged for a closer look

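In 13 of the 168 sets of values of 1 gene in 1 group, 1 mouse lay apart from the others by Dixon's 95% limit, and chance alone marks about 1 set in 20. Of these, 7 were the mouse X2350, high among the Ang II-treated IKKβ+/+ mice. It had 329.9 normalized counts of Ddit3 (241 to 259 in the other 4), 185 of Trib3 (42.04 to 72.6), 1009 of Slc7a5 (191 to 363), 1369.9 of Slc3a2 (943 to 1056), 204 of Chac1 (16.5 to 47.8), 3852 of Eprs (1982 to 2408.6) and 1072 of Cars (448 to 555). These are 2 regulators, both chains of the LAT1 exchanger, 1 glutathione enzyme and 2 synthetases. X2356 of the same group was low in Aldh18a1 (796, with 1065 to 1131 in the others) and Slc1a4 (323, with 446 to 493).

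The other 4 were single values. X2373 had 952 normalized counts of Slc7a1 among the saline-infused IKKβ+/+ mice (575 to 675). X2383 had 633 of Slc1a4 among the Ang II-treated IKKβ-/- mice (257 to 353). X2409 had 11.6 of Chac1 (15.8 to 16.4) and 967 of Lars (739.5 to 771) among the saline-infused IKKβ-/- mice.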

How the results depend on the processing

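Under the 34 alternatives (15 settings and 19 fits that each left out a mouse) the 28 calls on members gave 952 values, of which 793 kept their direction and passed, 159 kept their direction and did not pass, and 0 changed direction. A fit without a mouse outside the groups compared acts on a call only through the shared spread and the genes tested, and such fits are among the 19. Of 18 calls in IKKβ+/+ mice 7 held in each of the 19 fits, and of 8 in IKKβ-/- mice 6 did. With Ang II in IKKβ+/+ mice the count of members past the threshold was 10 at an adjusted p under 0.05 (of the synthetases Gars, Yars and Mars1), 6 at a fold change above 1.5 (no synthetase), 13 with the clock score, and 7 to 20 with a mouse left out (7 without X2350, 8 without X2358). In IKKβ-/- mice it was 5 with only the groups compared in the fit, 0 with the adipocyte score, 1 with the clock score, 2 with the immediate early score (none of these scores overlapped between the IKKβ-/- groups) and 5 without X2384 and X2385, and 6 to 9 with a mouse left out. For the difference between genotypes it was 3 with array weights, 4 with DESeq2, 1 with mitochondrial mRNA as a covariate and 0 to 4 with a mouse left out (4 without X2356). Between genotypes with saline it was 4 with only the groups compared, 6 with array weights, 4 with DESeq2, 0 with the adipocyte score, the clock score or mitochondrial mRNA, 0 without X2385 and X2406, 0 at an adjusted p under 0.05, and 0 to 5 with a mouse left out. Between genotypes with Ang II it was 7 with DESeq2 and 0 to 8 with a mouse left out (8 without X2356). The cause of these shifts was not tested. The difference in Ikbkb ranged from -26.3 to -21.9%. The immediate early and mitochondrial covariates and the fits without 2 mice were chosen after seeing the data. A fit of only the groups compared was not run for the difference between genotypes, which needs all 4. Depth limits Cth (10 reads in 4 mice) and Chac1. No paired analysis was possible because the groups share no replicate numbers.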
